A study of Mus musculus with 16 samples.

Results

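The genes of sterol and fatty acid synthesis were followed in sorted 4T07 tumour cells, a mouse mammary carcinoma line, after T cell attack on part of the tumour. The set holds 30 genes chosen by name for their place in the pathway, of 49139 genes with a symbol in the count tables. Of these, 18 encode enzymes of sterol synthesis, 7 encode enzymes of fatty acid synthesis, and 5 encode the regulators Srebf1, Srebf2, Scap and Insig1 and the sterol carrier Stard4. All 30 had enough counts to be tested in every comparison.

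GFP-transduced and mCherry-transduced 4T07 cells, 250000 in a mixture of equal parts, were grown in the mammary fat pad of female hybrid mice of the strains Balb/cJ and C57BL/6J. Jedi T cells, which recognise GFP and here lacked PD1, were given through the tail vein when tumours had grown for 7 or 15 days, and tumours were taken 7 days later. The groups were day 7 GFP cells, day 7 mCherry cells, day 15 GFP cells and day 15 mCherry cells, each with 3 libraries, and mCherry cells of 4 control tumours. GFP cells had survived the attack, whereas mCherry cells of the same tumours were not targeted. The tumours of the control group held mCherry cells and received no Jedi T cells. No GFP cells from a tumour without Jedi T cells were analysed here, so in each GFP against mCherry comparison the reporter and the T cell attack cannot be told apart. The numbers of the count columns name the tumours: 2 to 4 for the day 7 group, 1 to 3 for the day 15 group and C1 to C4 for controls.

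Libraries held 9412040 to 14535791 counts in day 7 GFP cells, 12942893 to 19970822 in day 7 mCherry cells, 21183324 to 24880582 in day 15 GFP cells, 21832170 to 22248031 in day 15 mCherry cells and 24367417 to 32808354 in controls. The day 7 libraries came from sequencing run 1 and all others from run 2, so day and run cannot be told apart. Levels below are in CPM, counts scaled to a common library size, with TMM factors. Of the epithelial markers, the keratin gene Krt8 lay between 332 and 912 CPM in all 16 libraries and Epcam between 0.569 and 2.64 CPM. The day 7 mCherry library of tumour 4 stood apart: Lars2 took 4.53% of its counts, against 0.292% to 0.437% in the other day 7 libraries. Its chi-square divided by degrees of freedom was 92.1 and 88.1 against the mCherry libraries of tumours 2 and 3, which gave 10.5 between them. It was the lowest of its group for 16 of the 30 members and 11 of the 18 sterol enzymes. The share of all genes for which it was the lowest was not counted.

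Cells make cholesterol from acetyl-CoA through mevalonate, isoprenoid units, squalene and lanosterol, and they make fatty acids from the same acetyl-CoA. Genes of both branches are classic targets of the sterol regulatory element-binding proteins (SREBPs). The product of Srebf2 acts mainly on sterol genes, and that of Srebf1 acts largely on fatty acid genes. Scap escorts the precursors to the Golgi for cleavage when membrane cholesterol is low, and Insig1, itself an SREBP target, holds Scap back in the endoplasmic reticulum when it is high.

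Because the members share these regulators, the 250 bases before the RefSeq gene start were read for 2 motifs on both strands: TCACNCCAC, a form of the sterol regulatory element, and CCAAT, the site of NF-Y, a known partner of SREBPs. A window was available for 24 members in the RefSeq promoter table (GRCm38.p6). Fdps, Fdft1, Sqle, Stard4, Scd1 and Scd2 had no entry. The windows of 5 members that the results turn on are given 5′ to 3′ on the gene's strand, with motif matches in capitals.
Hmgcs1 (chr13:119690101-119690350, plus strand): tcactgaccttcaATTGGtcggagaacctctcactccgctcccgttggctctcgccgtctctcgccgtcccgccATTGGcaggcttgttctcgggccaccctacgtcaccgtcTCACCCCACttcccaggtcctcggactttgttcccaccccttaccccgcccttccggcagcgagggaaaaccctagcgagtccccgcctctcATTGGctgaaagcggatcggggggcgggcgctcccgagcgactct
Cyp51 (chr5:4104698-4104947, minus strand): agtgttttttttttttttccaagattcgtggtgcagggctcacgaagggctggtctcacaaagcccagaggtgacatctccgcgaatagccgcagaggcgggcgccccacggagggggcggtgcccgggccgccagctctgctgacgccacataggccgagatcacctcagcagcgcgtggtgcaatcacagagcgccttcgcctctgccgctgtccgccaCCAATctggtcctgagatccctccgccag
Msmo1 (chr8:64733579-64733828, minus strand): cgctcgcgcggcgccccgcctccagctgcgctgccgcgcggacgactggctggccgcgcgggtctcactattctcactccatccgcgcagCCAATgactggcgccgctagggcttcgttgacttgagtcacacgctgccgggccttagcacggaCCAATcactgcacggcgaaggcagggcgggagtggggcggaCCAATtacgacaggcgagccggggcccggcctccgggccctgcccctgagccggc
Srebf2 (chr15:82147019-82147268, plus strand): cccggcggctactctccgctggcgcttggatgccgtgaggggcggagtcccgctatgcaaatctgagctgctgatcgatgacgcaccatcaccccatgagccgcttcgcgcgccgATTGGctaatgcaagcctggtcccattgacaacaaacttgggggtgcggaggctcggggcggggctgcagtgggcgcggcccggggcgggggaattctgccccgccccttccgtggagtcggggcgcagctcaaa
Fasn (chr11:120824548-120824797, minus strand): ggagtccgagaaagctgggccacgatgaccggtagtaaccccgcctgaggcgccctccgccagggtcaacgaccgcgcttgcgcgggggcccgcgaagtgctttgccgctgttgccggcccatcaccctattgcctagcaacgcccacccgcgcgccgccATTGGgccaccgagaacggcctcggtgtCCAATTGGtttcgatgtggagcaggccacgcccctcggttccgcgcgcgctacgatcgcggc

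The CCAAT pentamer or its reverse complement ATTGG stood in at least 1 window of 19 of the 24 members (79.2%), against 37.49% of 27025 genes in the table and 40.29% of the 10318 of these that were tested. The 5 members without it were Acat2, Acaca, Acly, Elovl6 and Scap. The only Acaca window (chr11:84195188-84195437) lies inside the gene as GENCODE M21 places it (chr11:84129672-84401651, plus strand). The bases before that earlier start of Acaca were therefore not read. In the Fasn window the CCAAT and ATTGG nearest the start overlap each other. TCACNCCAC stood in the window of Hmgcs1 alone, 1 of 24 (4.2%), against 1.22% of all genes in the table. These are letter matches in one short window per start and no measure of binding.

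Levels can be compared between genes only per length. Per kilobase of merged annotated exons, Scd2, a stearoyl-CoA desaturase, was highest with a mean of 103 CPM per kb over the 16 libraries. Scd1 (32.2 CPM per kb), Fasn (31.9), Acly (27.1) and the squalene epoxidase gene Sqle (26.1) came next. The lowest were Tm7sf2 (0.86 CPM per kb), a sterol reductase, Dhcr7 (1.51), which encodes the enzyme of a last step to cholesterol, and Idi1 (2.29), the isopentenyl diphosphate isomerase.

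**Figure D1:**
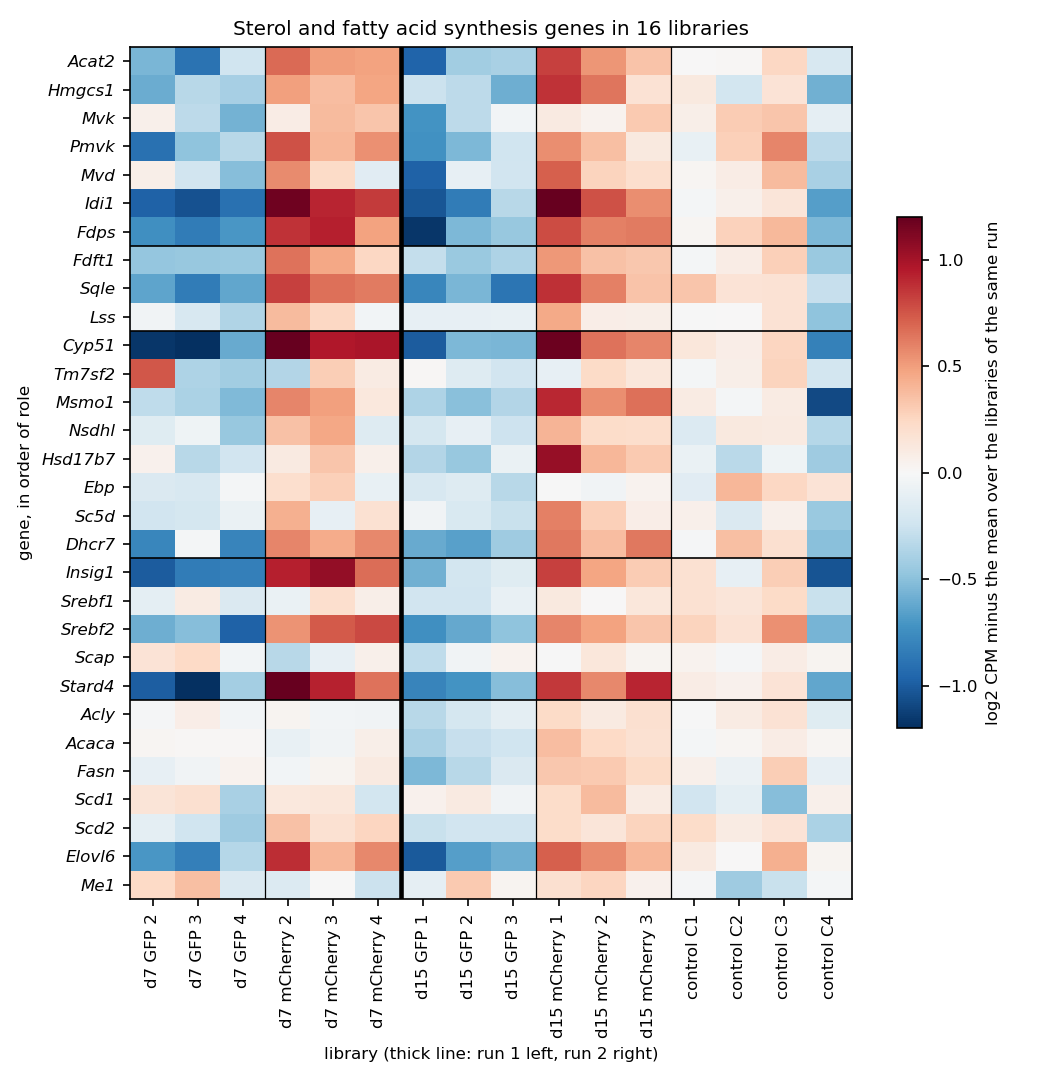
Heat map of the 30 genes (rows, in order of role) in the 16 libraries (columns), as log2 CPM minus the gene's mean over the libraries of the same run; red is above and blue below that mean. Sterol genes are blue in most GFP libraries and red in most mCherry libraries, and control C4 is blue for most sterol genes.

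The first comparison asks how GFP cells that survived T cells given on day 7 differed from untargeted mCherry cells of the same tumours. In the day 7 GFP cells 15 of the 30 genes were lower and 0 were higher (edgeR quasi-likelihood test with tumour as a block, adjusted p under 0.05). Over all 14578 genes tested, 9.33% were called lower and 8.89% higher. Of the sterol enzymes 10 of 18 were lower, with a median log2 fold change of −0.83, against −0.0037 over all genes. Of the fatty acid genes 2 of 7 were lower, Scd2 and Elovl6, and the median was −0.01. Among the regulators and transport genes 3 of 5 were lower, namely Insig1, Srebf2 and Stard4, and the median was −1.36.

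In the first arm, which runs from acetoacetyl-CoA to farnesyl diphosphate, 5 of 7 genes were lower on day 7. Hmgcs1, which encodes the cytosolic HMG-CoA synthase, had 28.1, 33.7 and 32.3 CPM in GFP cells of tumours 2, 3 and 4, against 59.8, 54.9 and 59.1 CPM in mCherry cells. The libraries of the 2 colours did not overlap, and the level was 1.83-fold lower in GFP cells (log2 fold change −0.87, SE 0.12, adjusted p 0.00092, n = 3 tumours). Idi1 showed the largest fall of this arm, with 2.36 ± 0.12 CPM in GFP cells, against 9.14 ± 1.09 CPM in mCherry cells (SD, n = 3 each; log2 fold change −1.92). The farnesyl diphosphate synthase gene Fdps was 2.83-fold lower, the phosphomevalonate kinase gene Pmvk 2.16-fold lower and the cytosolic thiolase gene Acat2 2.13-fold lower. Mvk and Mvd, the mevalonate kinase and the diphosphate decarboxylase of the arm, did not pass the test, with log2 fold changes of −0.53 (SE 0.21) and −0.43 (SE 0.20).

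From farnesyl diphosphate to lanosterol, Fdft1 and Sqle were lower and Lss was not called. Sqle had 75.1, 64.9 and 75.5 CPM in GFP cells of tumours 2, 3 and 4, against 205, 184 and 179 CPM in mCherry cells. Every GFP library thus lay far below every mCherry library, a 2.61-fold difference (log2 fold change −1.38, SE 0.10, adjusted p 2.8e-05). Fdft1, squalene synthase, was 1.85-fold lower (adjusted p 0.00055). Of its exon length 18.31% overlaps Ctsb on the other strand. Ctsb was far more abundant (means of 1256 CPM in GFP cells, against 1141 CPM in mCherry cells) and was not called, and no source used here says whether counting used the strand. The lanosterol synthase gene Lss had a log2 fold change of −0.38 (SE 0.14, adjusted p 0.090).

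Below lanosterol, 3 of 8 genes were lower on day 7. Cyp51, the lanosterol demethylase gene, had 9.14, 7.69 and 13.5 CPM in GFP cells of tumours 2, 3 and 4, against 48.5, 40.02 and 40.5 CPM in mCherry cells. This was the largest fall among the 30 genes, 4.26-fold (log2 fold change −2.09, SE 0.18, adjusted p 7.1e-05). Msmo1, the methylsterol monooxygenase gene, had 34.4, 32.6 and 29.3 CPM in GFP cells and 63.8, 59.8 and 46.2 CPM in mCherry cells, and was 1.73-fold lower (adjusted p 0.0013). Dhcr7 was 2.04-fold lower (adjusted p 0.019), but without tumour 2 its adjusted p was 0.0586. Nsdhl, Hsd17b7, Ebp and Sc5d, which act between Msmo1 and the end of the pathway, had log2 fold changes of −0.42, −0.32, −0.25 and −0.33 and did not pass the test. Hsd17b7 had 16.3, 12.5 and 13.4 CPM in GFP cells and 17.01, 19.8 and 16.4 CPM in mCherry cells, so that its groups nearly met. Tm7sf2, the member of lowest mean level per kilobase over the 16 libraries, had a log2 fold change of 0.00 (SE 0.39).

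The regulators split on day 7. Srebf2 had 27.5, 29.1 and 21.1 CPM in GFP cells of tumours 2, 3 and 4, against 60.2, 68.9 and 71.7 CPM in mCherry cells. It was 2.57-fold lower without overlap (log2 fold change −1.36, SE 0.14, adjusted p 0.00021). Srebf1 had 50.02, 58.2 and 48.1 CPM in GFP cells and 51.5, 62.7 and 57.1 CPM in mCherry cells, groups that overlapped (log2 fold change −0.12, SE 0.11, adjusted p 0.50). The Scap level was 62.0, 65.4 and 54.0 CPM in GFP cells and 44.0, 51.6 and 57.8 CPM in mCherry cells, again with overlap (log2 fold change 0.26, SE 0.13, adjusted p 0.20). Insig1 had 8.73, 9.70 and 9.82 CPM in GFP cells and 33.2, 36.1 and 27.7 CPM in mCherry cells. All GFP libraries lay below the mCherry libraries, 3.38-fold (log2 fold change −1.76, SE 0.16, adjusted p 7.8e-05). Stard4 had 4.72, 3.51 and 7.07 CPM in GFP cells and 21.9, 17.8 and 14.7 CPM in mCherry cells, and was 3.53-fold lower (adjusted p 0.0012).

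Most fatty acid genes gave no call on day 7. Fasn, the fatty acid synthase gene, had 155, 161 and 170 CPM in GFP cells of tumours 2, 3 and 4, against 162, 169 and 179 CPM in mCherry cells (log2 fold change −0.06, SE 0.09, adjusted p 0.73). Acaca, the acetyl-CoA carboxylase gene, had 36.7, 36.5 and 36.5 CPM in GFP cells and 33.9, 35.1 and 37.9 CPM in mCherry cells (log2 fold change 0.06, SE 0.12, adjusted p 0.78). For both genes the values of the 2 colours overlapped. Acly (log2 fold change 0.04, SE 0.09), which makes cytosolic acetyl-CoA from citrate, and Scd1 (−0.01, SE 0.10) were likewise not called, nor was Me1 (0.30, SE 0.12), the malic enzyme that supplies NADPH. Elovl6 and Scd2 were the exceptions. Elovl6, the elongase of palmitate, had 27.7, 25.4 and 35.4 CPM in GFP cells and 83.4, 59.5 and 67.2 CPM in mCherry cells. It was 2.34-fold lower without overlap (log2 fold change −1.23, SE 0.13, adjusted p 0.00028). Scd2 was 1.43-fold lower (adjusted p 0.0078), and its adjusted p became 0.0609 once tumour 3 was dropped.

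Other marker lists moved in the same libraries. All 12 proliferation genes tested were lower in day 7 GFP cells, with summed levels of 882 to 1677 CPM in GFP cells and 1823 to 2164 CPM in mCherry cells. All 12 macrophage and monocyte markers were lower, with sums of 103 to 166 CPM in GFP cells and 603 to 847 CPM in mCherry cells, as were the 10 endothelial markers tested of 12, with sums of 11.2 to 12.7 CPM against 38.7 to 71.9 CPM. For the 18 sterol enzymes the sums were 384 to 406 CPM in GFP cells and 695 to 832 CPM in mCherry cells. Of 7 fibroblast and pericyte markers tested 2 were lower, with sums of 775 to 834 CPM in GFP cells, against 720 to 922 CPM in mCherry cells. Of 5 mammary epithelium markers tested, Krt8 (log2 fold change −0.96) and Krt18 (−1.72) were lower and Cdh1 (1.92) and Csn3 (1.61) higher. Krt8 averaged 421 CPM in GFP cells, against 822 CPM in mCherry cells. In bulk samples fewer cells of a type and less RNA per cell cannot be told apart, and the part of host cells, of dividing cells and of the other lists in the sterol result was not tested. Per tumour, the median log2 difference of the sterol enzymes was −0.99, −0.69 and −0.70 in tumours 2, 3 and 4. That of the proliferation genes was −1.07, −1.09 and −0.26. The mCherry library of tumour 4 is the one that stood apart above.

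**Figure D2:**
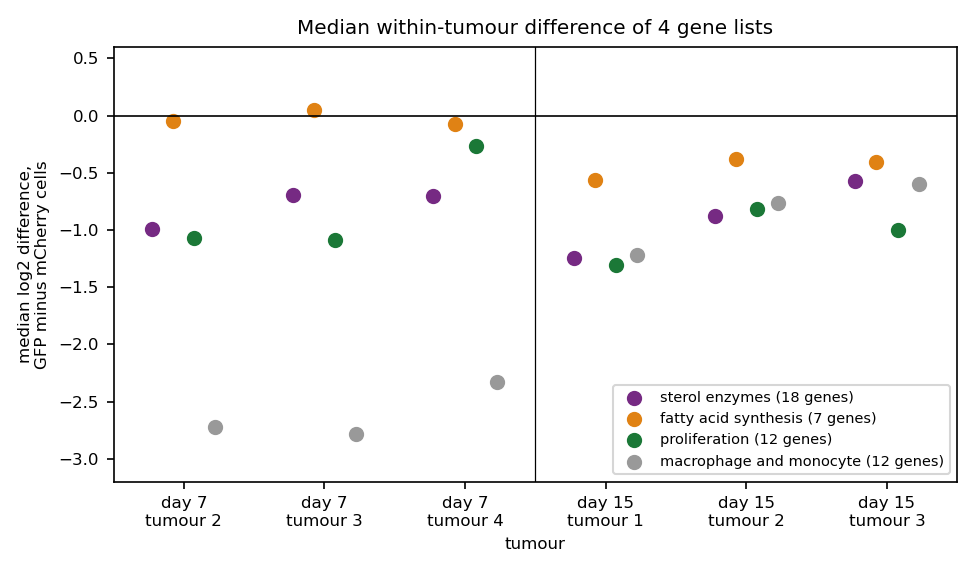
Median log2 difference between GFP and mCherry cells of each tumour (y axis) for the sterol enzymes, fatty acid genes, proliferation genes and macrophage and monocyte markers, by tumour (x axis); 1 point is the median over the genes of a list. The sterol median is below 0 in all 6 tumours, and the fatty acid median lies between −0.07 and 0.05 on day 7 and between −0.56 and −0.38 on day 15.

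The same comparison in tumours given T cells on day 15 gave 24 of 30 genes lower in GFP cells and 0 higher (edgeR quasi-likelihood test with tumour as a block, adjusted p under 0.05). Over all 14260 genes tested, 10.6% were called lower and 8.94% higher. The sterol enzymes had 15 of 18 lower with a median log2 fold change of −0.86, the fatty acid genes 5 of 7 with a median of −0.46, and the regulators and transport genes 4 of 5 with a median of −0.84. The median over all genes was 0.01. All 15 genes called on day 7 were also called lower on day 15, and the other 9 calls were Mvk, Mvd, Nsdhl, Hsd17b7, Sc5d, Srebf1, Acly, Acaca and Fasn.

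All 7 genes of the first sterol arm were lower on day 15. Hmgcs1 had 71.4, 68.8 and 56.9 CPM in GFP cells of tumours 1, 2 and 3, against 156, 133 and 96.7 CPM in mCherry cells. The groups did not overlap, and GFP cells were 1.93-fold lower (log2 fold change −0.95, SE 0.09, adjusted p 0.00015). Idi1 was 3.05-fold lower, the largest fall of the 30 genes on this day, followed by Cyp51 with 2.82-fold and Stard4 with 2.74-fold. The calls of Mvk (adjusted p 0.038) and Mvd (adjusted p 0.044) lay close to the threshold. Both ended without the tumour block (adjusted p 0.098 and 0.0576) and without tumour 1 (adjusted p 0.153 and 0.174).

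Sqle had 83.2, 97.3 and 77.7 CPM in GFP cells of tumours 1, 2 and 3, against 261, 217 and 181 CPM in mCherry cells. It was 2.53-fold lower, with each GFP library below each mCherry library (log2 fold change −1.34, SE 0.10, adjusted p 5.1e-05). Cyp51 had 18.3, 25.2 and 25.0 CPM in GFP cells and 82.8, 57.5 and 55.0 CPM in mCherry cells, without overlap (log2 fold change −1.49, SE 0.18, adjusted p 0.00040). Msmo1 had 18.1, 16.6 and 18.4 CPM in GFP cells and 43.9, 34.5 and 37.2 CPM in mCherry cells. Its GFP libraries were all below the mCherry ones, 2.17-fold (log2 fold change −1.12, SE 0.10, adjusted p 0.00014). Hsd17b7, a ketosteroid reductase of the pathway, had 20.3, 18.8 and 24.5 CPM in GFP cells and 53.4, 34.1 and 32.0 CPM in mCherry cells, 1.84-fold lower (adjusted p 0.0045). Lss (log2 fold change −0.30, SE 0.11, adjusted p 0.078), Ebp (−0.22, SE 0.12, adjusted p 0.24) and Tm7sf2 (−0.22, SE 0.21, adjusted p 0.50) did not pass the test on either day.

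Srebf2 had 90.3, 97.9 and 107 CPM in day 15 GFP cells of tumours 1, 2 and 3, against 225, 210 and 189 CPM in mCherry cells. It was 2.11-fold lower and the groups did not overlap (log2 fold change −1.08, SE 0.10, adjusted p 0.00014). Srebf1 had 81.0, 81.1 and 89.2 CPM in GFP cells and 103, 95.0 and 104 CPM in mCherry cells. The groups did not overlap, but the difference was small, 1.202-fold lower in GFP cells (log2 fold change −0.26, SE 0.08, adjusted p 0.044). That call ended under DESeq2 (adjusted p 0.0813), without the tumour block (adjusted p 0.0523) and when any tumour was left out. Scap, with 60.6, 72.8 and 77.0 CPM in GFP cells and 74.9, 82.4 and 76.7 CPM in mCherry cells, was not called (log2 fold change −0.16, SE 0.09, adjusted p 0.25). Insig1 had 58.0, 74.2 and 78.2 CPM in GFP cells and 153, 120 and 106 CPM in mCherry cells, 1.79-fold lower without overlap (log2 fold change −0.84, SE 0.15, adjusted p 0.0040). Stard4 had 15.9, 16.8 and 19.4 CPM in GFP cells and 49.9, 41.2 and 52.1 CPM in mCherry cells (adjusted p 3.4e-05).

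On day 15 the fatty acid genes were mostly lower too. Fasn had 311, 357 and 399 CPM in GFP cells of tumours 1, 2 and 3, against 563, 558 and 529 CPM in mCherry cells. It was 1.55-fold lower and every GFP library lay below every mCherry library (log2 fold change −0.64, SE 0.10, adjusted p 0.0019). Acaca had 62.4, 67.4 and 69.3 CPM in GFP cells and 106, 96.4 and 93.1 CPM in mCherry cells, 1.48-fold lower without overlap (adjusted p 0.0023). Elovl6 had 39.3, 50.1 and 52.7 CPM in GFP cells and 130, 117 and 104 CPM in mCherry cells. Its fall, 2.48-fold (log2 fold change −1.31, SE 0.13, adjusted p 0.00016), was the largest among the fatty acid genes. Scd2 was 1.37-fold and Acly 1.32-fold lower. Scd1 (log2 fold change −0.20, SE 0.08, adjusted p 0.11) and Me1 (−0.09, SE 0.10, adjusted p 0.57) were not called.

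The proliferation, macrophage and endothelial lists again had lower sums in GFP cells, whereas the other lists were mixed. All 12 proliferation genes were lower in day 15 GFP cells, with sums of 785 to 1152 CPM in GFP cells and 1540 to 2268 CPM in mCherry cells. Of the macrophage and monocyte markers 6 of the 10 tested were lower, with sums of 55.1 to 73.2 CPM in GFP cells and 89.1 to 111 CPM in mCherry cells. Most of that sum was Cd14; without it the markers summed to 13.2 to 21.4 CPM in GFP cells and 19.4 to 28.9 CPM in mCherry cells. Of the 12 endothelial markers 4 were lower, with sums of 15.7 to 20.9 CPM against 21.6 to 48.1 CPM. Markers of adipocytes, cells that make much fatty acid, summed to 51.01 to 82.6 CPM in GFP cells and 66.6 to 84.0 CPM in mCherry cells, and of the 9 tested 1 was lower and 1 higher. Of 9 fibroblast and pericyte markers tested 4 were lower and 1 higher, with sums of 1411 to 1619 CPM in GFP cells and 1127 to 1407 CPM in mCherry cells. Krt8 (log2 fold change −0.55) and Krt18 (−0.98) were lower and Cdh1 (1.36) and Csn3 (1.78) higher, of 5 mammary epithelium markers tested. The part of these in the result was not tested. Sterol enzymes summed to 402 to 428 CPM in GFP cells and 707 to 970 CPM in mCherry cells, and fatty acid genes to 1374 to 1510 CPM against 2019 to 2094 CPM.

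**Figure D3:**
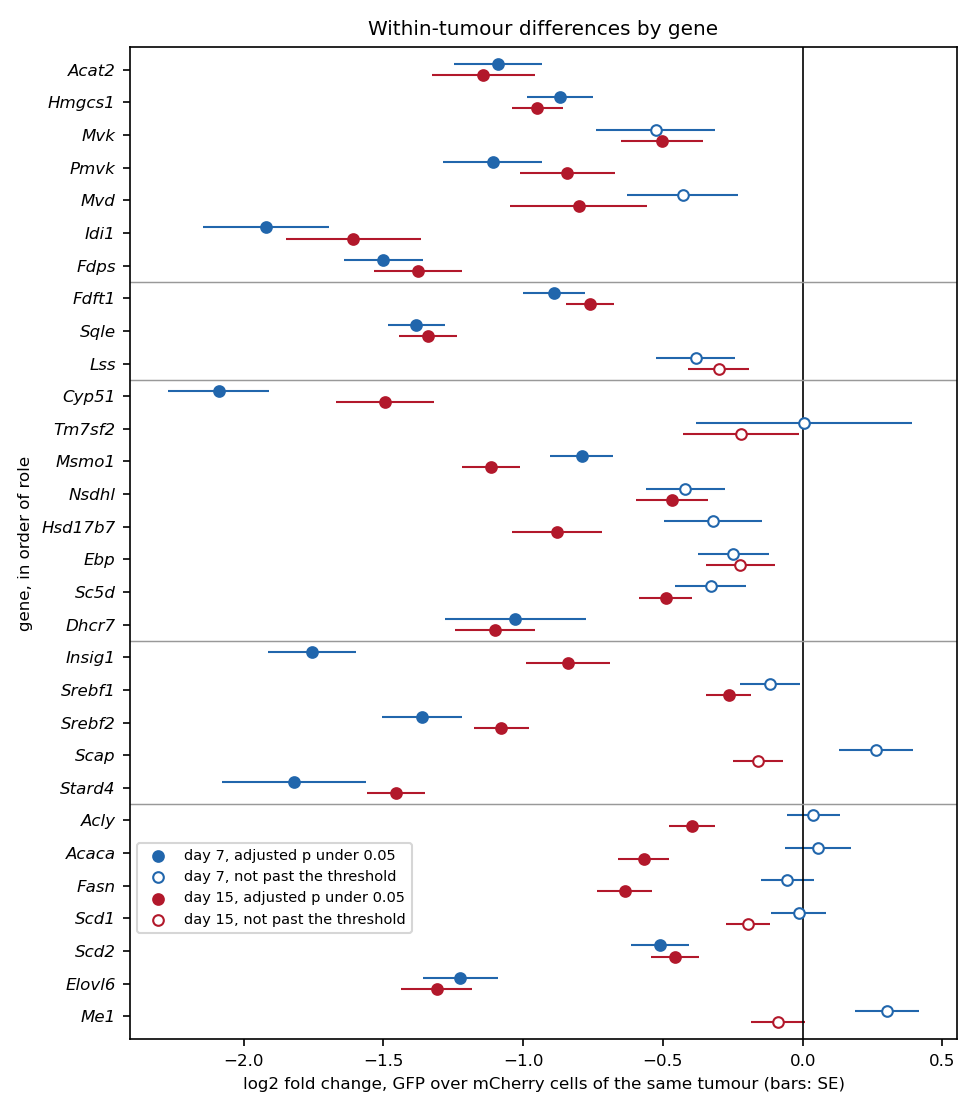
Log2 fold change of GFP over mCherry cells of the same tumours (x axis) for the 30 genes (y axis, in order of role), on day 7 (blue) and day 15 (red), with bars of 1 SE; filled points passed an adjusted p of 0.05. Most sterol genes lie left of 0 on both days, while Acly, Acaca and Fasn lie near 0 on day 7 and left of it on day 15.

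Direction by tumour was read as a description. On day 7, 23 of the 30 genes were lower in GFP cells in all 3 tumours (76.7%), against 27.5% of all genes tested. These included 16 of 18 sterol enzymes and 3 of 7 fatty acid genes. On day 15 the count was 27 of 30 (90%), against 27.6% of all genes, with 17 of 18 sterol enzymes and 6 of 7 fatty acid genes. The groups of the 2 colours did not overlap, with GFP cells below, for 18 of 30 genes on day 7 (18.2% of all genes) and 26 of 30 on day 15 (19% of all genes).

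Whether the GFP effect differed between the days was tested directly, as the day 15 minus the day 7 effect in the 12 libraries of mixed tumours. No member passed the test (edgeR quasi-likelihood test, adjusted p under 0.05), with 35 of 16626 genes called in all (0.211%), so the calls made on day 15 alone were not shown to be particular to that day. At an unadjusted p under 0.05, the log2 fold change was lower on day 15 for Acly, Acaca, Fasn, Me1, Scap and Hsd17b7 and higher for Insig1. These are 6 and 1 of 30, against 5.78% of all genes lower and 4.46% higher at that threshold. Differences were −0.62 (SE 0.14, adjusted p 0.12) for Acaca, −0.58 (SE 0.14, adjusted p 0.15) for Fasn, −0.43 (SE 0.13, adjusted p 0.25) for Acly and 0.91 (SE 0.24, adjusted p 0.17) for Insig1. With DESeq2 the difference was called for Insig1 (adjusted p 0.0223) and Fasn (adjusted p 0.0453). Sequencing run changes with day in this contrast. Across the 30 genes the log2 fold changes of the 2 days had a Pearson correlation of 0.893, against 0.712 over 13012 genes tested on both days; this is a description across genes, which are not independent.

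**Figure D4:**
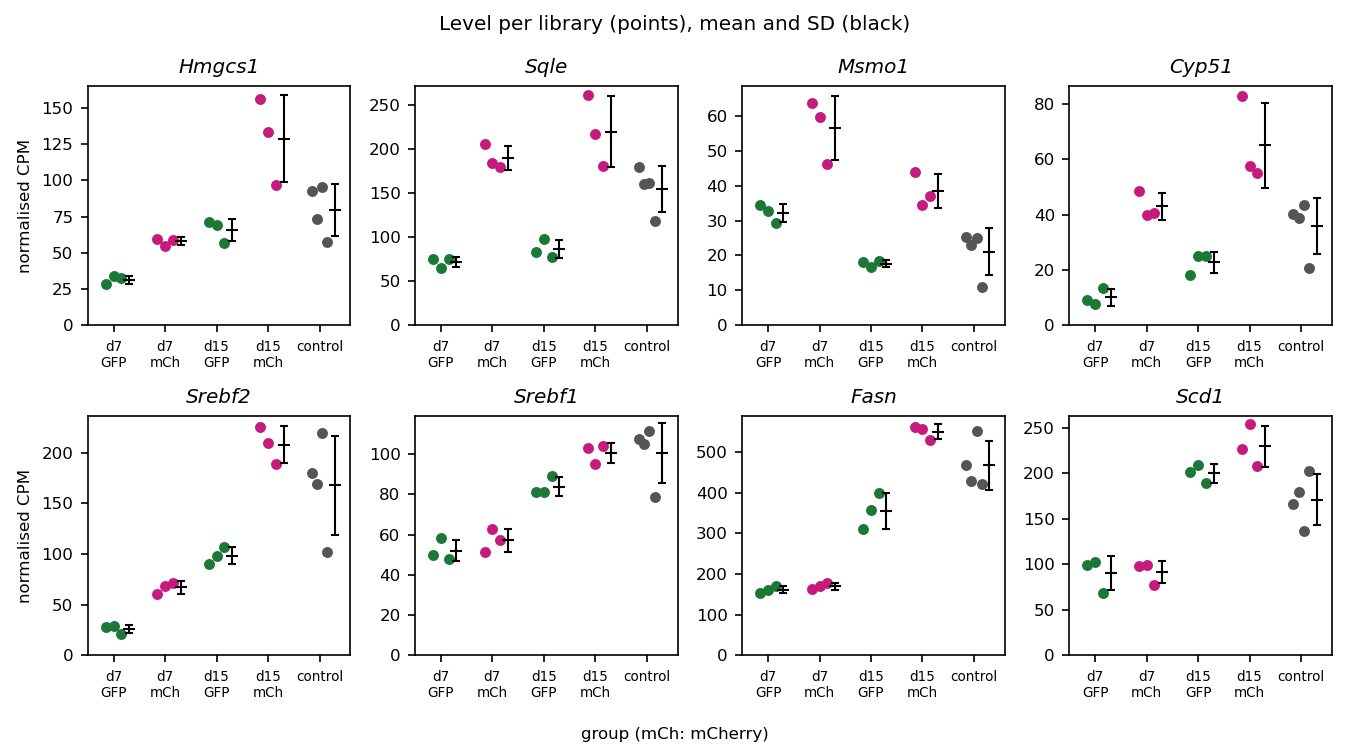
Normalised CPM (y axes) of 8 genes in each library by group (x axis), with mean and SD in black. Sqle, Srebf2 and Cyp51 in GFP cells lie below mCherry cells on both days, Srebf1 and Scd1 lie close in the 2 colours, and Fasn separates on day 15.

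Genes of the same synthesis pathways outside the 30 were, where tested, either lower in GFP cells or not called. Of 16 further genes of isoprenoid and fatty acid synthesis, 4 of 15 tested were lower in GFP cells on day 7 and 6 of 16 on day 15. None was called higher. Of all genes 9.33% were lower and 8.89% higher on day 7, and 10.6% and 8.94% on day 15. Fads2, a fatty acid desaturase, had 3.49, 3.36 and 3.60 CPM in day 7 GFP cells and 13.0, 9.89 and 11.1 CPM in day 7 mCherry cells (log2 fold change −1.67). It was lower on day 15 as well (log2 fold change −1.73). Acss2, which makes acetyl-CoA from acetate (log2 fold changes −0.80 and −0.52 on days 7 and 15), and Slc25a1, the citrate carrier (−0.34 and −0.31), were also lower on both days. Fads1 was lower on day 7 (−3.62), at low levels of 0 to 0.41 CPM in GFP cells and 1.27 to 2.48 CPM in mCherry cells. Acacb (−0.63), Mid1ip1 (−0.56) and Hsd17b12 (−0.25) were lower on day 15.

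Among 9 further genes of SREBP processing and sterol sensing, 1 was lower and 2 were higher on day 7, and 1 was lower and 1 higher on day 15. With so few genes these shares are near those of all genes, 9.33% lower and 8.89% higher on day 7 and 10.6% and 8.94% on day 15. Tmem97, a sterol-responsive membrane protein gene, was the lower one on both days (log2 fold changes −0.82 and −0.92). Mbtps2, a protease that cleaves SREBPs (0.45), and Rnf139 (0.33) were higher on day 7, and Insig2, the relative of Insig1 (0.58), was higher on day 15. In a list of 10 genes of LXR targets, sterol storage and efflux, Ch25h (−3.13), Abcg1 (−2.13) and Nr1h3 (−0.81) were lower on day 7. Levels were low: in GFP cells Ch25h had 0.26 to 0.51 CPM and Abcg1 0.07 to 1.13 CPM. In mCherry cells they had 2.66 to 4.26 and 1.46 to 4.50 CPM. On day 15, 8 of the 10 genes were tested. Mylip was higher on both days (0.68 and 0.84), and Abca1, the cholesterol exporter, was higher on day 15 (0.75). Abca1 had 103, 145 and 106 CPM in day 15 GFP cells and 55.4, 84.7 and 69.7 CPM in day 15 mCherry cells, so its groups did not overlap.

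The day 15 mCherry cells were then set against mCherry cells of control tumours, which received no Jedi T cells. The control tumours held mCherry cells, whereas the day 15 tumours grew from a mixture of both colours. No number of injected cells and no tumour age at harvest is given for the controls. In comparisons with controls the T cell attack cannot therefore be told apart from the make-up or the age of the tumour. With 3 against 4 libraries no member was called (edgeR quasi-likelihood test, adjusted p under 0.05), and 0 of 14800 genes were called. At an unadjusted p under 0.05, 19 members were higher in mCherry cells and 0 lower, against 7.75% higher and 6.47% lower of all genes. For 17 of the 30 genes all 3 mCherry libraries lay above all 4 controls, against 8.49% of all genes, and for 0 of the 30 genes did they lie below all controls, against 6.01%. The median log2 fold change was 0.47 for the sterol enzymes, 0.23 for the fatty acid genes and 0.31 for the regulators and transport genes.

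Markers outside the pathway moved in the same contrast, also without a call at an adjusted p under 0.05. At an unadjusted p under 0.05, 10 of 12 proliferation genes were higher in day 15 mCherry cells than in controls (median log2 fold change 0.40) and 7 of 9 adipocyte markers were higher (median 1.30). Of 11 macrophage and monocyte markers 9 were lower (median −1.52), and for 8 of them all mCherry libraries lay below all controls, while Cd14 was higher (0.72). Without Cd14 these markers summed to 19.4 to 28.9 CPM in mCherry cells and 44.0 to 131 CPM in controls. The part of these in the sterol and fatty acid values was not tested.

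The members of smallest p were Stard4 and Hsd17b7. Stard4 had 49.9, 41.2 and 52.1 CPM in day 15 mCherry cells, against 29.5, 28.7, 30.9 and 17.9 CPM in controls C1 to C4 (log2 fold change 0.83, SE 0.18, adjusted p 0.25). Hsd17b7 had 53.4, 34.1 and 32.0 CPM in mCherry cells, against 24.4, 20.6, 24.9 and 19.3 CPM in controls (log2 fold change 0.84, SE 0.18, adjusted p 0.25). In both genes the groups did not overlap. Sqle had a log2 fold change of 0.50 (SE 0.16, adjusted p 0.27), while Srebf1 (0.00, SE 0.11), Scap (0.02, SE 0.06) and Mvk (−0.01, SE 0.13) had values near 0. DESeq2 called 7 members higher, namely Acat2, Hmgcs1, Idi1, Cyp51, Msmo1, Hsd17b7 and Stard4, of 262 genes it called in all.

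Control C4 stood apart from the other controls in these genes. How often it was the lowest over all genes was not counted. It was the lowest of the 4 controls for 24 of the 30 members and for 17 of the 18 sterol enzymes. Insig1, for example, had 42.1 CPM in C4, against 98.0, 80.6 and 106 CPM in C1 to C3, and Msmo1 had 11.0 CPM in C4 against 25.2, 23.1 and 25.1 CPM. Scd1 ran the other way, with 203 CPM in C4 and 137 to 179 CPM in C1 to C3, as did the adipocyte marker Fabp4, with 21.3 CPM in C4 and 5.60 to 9.21 CPM in the others. Fabp4 in day 15 mCherry cells lay between 19.5 and 30.1 CPM, and adipocyte markers summed to 66.6 to 84.0 CPM in mCherry cells and 17.05 to 65.6 CPM in controls; their part in the Scd1 values was not tested. Without C4 the 30 genes still gave no call between day 15 mCherry cells and controls. The median log2 fold change of the sterol enzymes was then 0.35, against 0.47 with all 4 controls.

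**Figure D5:**
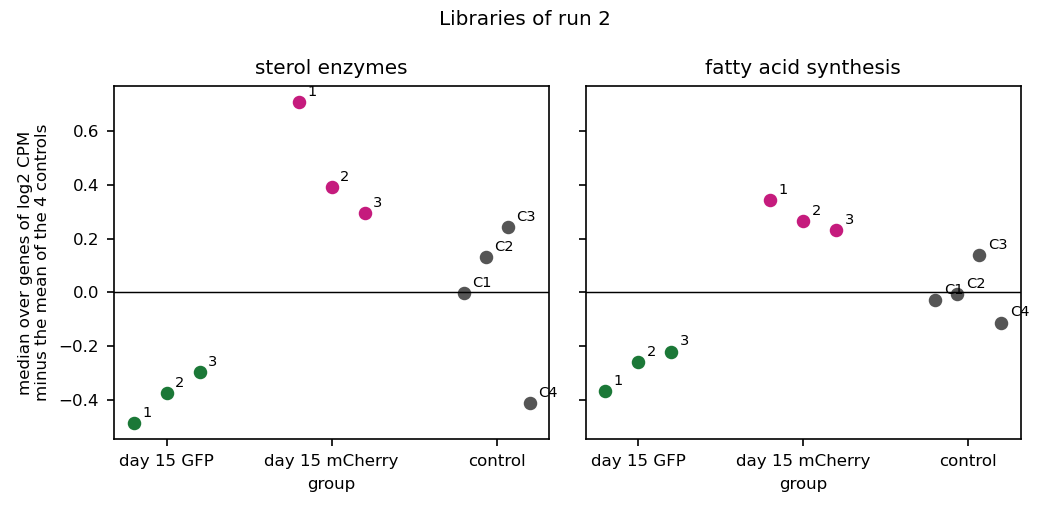
Median over the 18 sterol enzymes (left) and the 7 fatty acid genes (right) of log2 CPM minus the mean of the 4 controls (y axis), for each library of run 2, by group (x axis; labels give the tumour). For sterol enzymes mCherry libraries lie at 0.29 to 0.71, GFP libraries at −0.48 to −0.30 and controls at −0.41 to 0.24, where C4 is the lowest.

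Against the same controls, day 15 GFP cells had 5 members lower and 0 higher: Acat2, Sqle, Srebf2, Acaca and Elovl6. Over all 14801 genes tested 6.97% were called lower and 6.09% higher, 13.1% in either direction (edgeR quasi-likelihood test, adjusted p under 0.05). Sqle had 83.2, 97.3 and 77.7 CPM in GFP cells, against 180, 160, 161 and 118 CPM in controls (log2 fold change −0.85, SE 0.14, adjusted p 0.014), and Elovl6 had 39.3, 50.1 and 52.7 CPM against 85.3, 79.3, 107 and 80.8 CPM (log2 fold change −0.89, SE 0.13, adjusted p 0.010). Both genes separated fully. The count rests on the controls used: it was 15 without C4, between 1 and 3 without any single GFP library, and 3 without C2 or without C3. The median log2 fold change was −0.42 for the sterol enzymes and −0.29 for the fatty acid genes. In the same contrast 9 of 11 macrophage and monocyte markers (median −3.06) and 8 of 12 proliferation genes (median −0.55) were lower in GFP cells. Of 9 adipocyte markers 1 was higher (median 1.18), and of 12 endothelial markers 1 was lower (median −1.77). Of 10 fibroblast and pericyte markers 4 were lower and 2 higher (median −1.33), and of 5 mammary epithelium markers tested 2 were lower and 1 higher. Their part in the members' values was not tested.

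The 3 comparisons of run 2 share libraries, so their values stand side by side only. For Sqle, day 15 GFP cells averaged 86.1 ± 10.1 CPM, day 15 mCherry cells 219 ± 40.4 CPM (SD, n = 3 each) and controls 155 ± 26.2 CPM (n = 4). For Srebf2 the means were 98.5 ± 8.43, 208 ± 17.9 and 168 ± 48.7 CPM in the same order, and for Fasn 355 ± 44.2, 550 ± 18.2 and 467 ± 60.2 CPM. The control mean lay between the means of the 2 colours in all 3 genes, but for Srebf2 and Fasn the ranges overlapped. Srebf2 in C4 (102 CPM) lay within the GFP range, and Fasn in C3 (552 CPM) within the mCherry range. Not every member had this order. For Scd1 the control mean (171 CPM) was below GFP (200 CPM) and mCherry cells (230 CPM), as it was for Me1. For Ebp the control mean (19.8 CPM) was above GFP (14.9 CPM) and mCherry cells (17.4 CPM). For Srebf1 the means were 83.8 ± 4.71, 101 ± 4.88 and 101 ± 14.9 CPM, so that mCherry cells and controls had the same mean level within their spread. Proliferation genes summed to 785 to 1152 CPM in GFP cells, 1540 to 2268 CPM in mCherry cells and 1297 to 1457 CPM in controls. Macrophage and monocyte markers without Cd14 summed to 13.2 to 21.4 CPM in GFP cells, 19.4 to 28.9 CPM in mCherry cells and 44.0 to 131 CPM in controls.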

How the data were processed

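RNA of 16 libraries was measured by bulk sequencing of sorted cells. How CD45 was gated is not stated in the labels. The authors deposited raw counts per gene, which a sequencing company made for them per the labels' protocols. The submitters' processing notes name mm10 as the genome build. No source used here names the aligner, counter, strand setting or annotation. DESeq2 tables that the authors deposited beside the counts, with log2 fold changes, were not used. Each table holds 49315 genes. Rows without a symbol (176, up to 0.0110% of the counts in any library) were left out.

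Genes were filtered with filterByExpr (minimum count 10, minimum total 15), normalised with TMM and tested by quasi-likelihood F-tests (edgeR 4.0.16, R 4.3.3), with Benjamini-Hochberg adjustment over all genes tested, with a threshold of 0.05. Comparisons of GFP with mCherry cells on 1 day had tumour as a block, those with controls had none. Each SE was obtained by dividing the log2 fold change by the root of its F statistic. Printed CPM are on TMM-scaled sizes over all 16 libraries, and differences per tumour were taken on log2 CPM (prior count 2). Exon lengths are the merged exons of all transcripts of a gene in GENCODE M21, so levels per kilobase also depend on that annotation. On simulated data 86% of 200 genes changed 2-fold were recovered for day 7 GFP against mCherry cells (14323 genes, 7 false calls). For day 15 mCherry cells against controls 89% were recovered (14550 genes, 11 false calls). The changed genes were drawn from those of higher mean count, with dispersions estimated from these data and no tumour effect. These shares therefore do not give the power for members with few counts or for the real comparisons.

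For day 15 the tumour identifiers in the labels pair the libraries. On day 7 the columns carry numbers 2 to 4 where the labels have 1 to 3. These columns were assigned by group only and paired by column number, as residuals of the same number correlated at 0.11 to 0.158 and others at −0.126 to 0.007. On day 15 the correlations were 0.09 to 0.232 and −0.183 to 0.019. Replicates differed beyond counting error (chi-square divided by its degrees of freedom, 5.34 to 92.1).

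Members, lists and tests were chosen with earlier results of these data known. One other gene of these pathways is not reported here. Values per library are given for the 4 regulators, the 4 sterol and 3 fatty acid genes of smallest p within tumours and the 2 of smallest p against controls. The alternatives tried were DESeq2 1.42.0, edgeR with the size factors of DESeq2, all genes unfiltered, a minimum count of 50, fits without block, a joint fit of run 2 and leaving out each tumour or library.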

Additional observations from a re-analysis of the deposited data

Results flagged for a closer look

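In 2 members, control library C4 lay far from the other 3 controls, with a gap to the nearest of them that was large for the range of the group (Dixon's test at the 95% level). Msmo1, the methylsterol monooxygenase gene, had 11 CPM in C4, against 23.1, 25.1 and 25.2 CPM in the others. Stard4, the sterol carrier gene, had 17.9 CPM in C4, against 28.7, 29.5 and 30.9 CPM. The test was run in the control group, the one group of at least 4 libraries, for the 30 members, and chance alone would give about 1 such gap in 20 genes.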

How the results depend on the processing

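No result called at an adjusted p under 0.05 changed direction under any alternative tried. Within tumours the day 7 count was 15 lower and 0 higher with DESeq2, its size factors, no filter, a minimum count of 50 and no replicate block, and 14 to 19 lower with 0 to 2 higher when a tumour was left out; the 2 higher genes, without tumour 4, were Scap and Me1. With a tumour left out the day 7 median log2 fold change was −0.86 to −0.78 for sterol enzymes and −0.04 to 0.05 for fatty acid genes. On day 15 the count was 20 to 23 lower without a tumour, 21 with DESeq2, 23 without a filter or with a minimum count of 50, and 21 without the replicate block, where Mvk, Mvd and Srebf1 were lost; the day 7 calls kept without the block numbered 15. Of the 24 calls of day 15, Nsdhl ended with DESeq2 (adjusted p 0.0523) and without tumour 1 (0.105) or tumour 3 (0.101), and Scd2 without tumour 3 (0.0549).

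For day 15 mCherry cells against controls DESeq2 called 7 members higher, against 0 in edgeR. With a library left out the fatty acid median was 0.21 to 0.30 and the sterol median 0.34 to 0.51. The sterol median was lowest without mCherry tumour 1 (0.34) and without C4 (0.35). For day 15 GFP cells against controls the count of lower members was 12 with DESeq2, 11 without a filter, 10 in the joint fit of run 2 and 1 to 15 with a library left out, where the sterol median was −0.52 to −0.35. For the difference between days DESeq2 called 1 member lower and 1 higher, and no filter gave 2 lower and 1 higher. The cause of these changes was not tested. Depth limits members with few reads in day 7 GFP cells, such as Idi1 with 23 to 38 counts and Tm7sf2 with 30 to 47 counts per library.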

Other observations

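Some close relatives of the members had few counts. Acat3 averaged at most 2.55 CPM and Idi2 at most 0.0324 CPM in any group, and Scd3 averaged 2.84 to 5.17 CPM, against 90.3 to 230 CPM for Scd1 and 272 to 806 CPM for Scd2. Acat1, the mitochondrial thiolase gene, averaged 85.7 to 154 CPM per group and was not called on day 7 (log2 fold change −0.25, adjusted p 0.14) or day 15 (−0.18, adjusted p 0.18), whereas the cytosolic Acat2 was lower on both days. In the 3 libraries of day 15 mCherry cells, that of tumour 1 was the highest for 20 of the 30 members and for 14 of the 18 sterol enzymes. This was not counted over all genes. Cyp51 shares 166 exon bases with Akap9 on the other strand; Akap9 was not called on day 7 (log2 fold change 0.30, adjusted p 0.059) or day 15 (0.18, adjusted p 0.13).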
